A study of Mus musculus with 4 samples.

Results

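The lipogenic genes Fasn, Scd1, Scd2, Acly, Thrsp, Slc25a1, Srebf1 and Me1 were followed in the soleus, a slow-twitch calf muscle, of HSL-null and wildtype mice. The 8 genes belong to fatty acid synthesis and were chosen with earlier results of these data known, and every probe set (a group of probes for 1 transcript) whose annotation gave exactly 1 gene symbol, and that symbol, was taken. This gave 12 probe sets of 12422 on the array apart from controls, and 8 genes of 8251 named. The HSL-null group lacks hormone-sensitive lipase, the product of Lipe, a lipase that frees fatty acids from stored glycerides and sterol esters, and the wildtype group is its control. Both groups were female mice aged 6 months. Each genotype was represented by total RNA of 1 pool of soleus muscle from 5 mice, measured on 2 arrays as technical duplicates. There is thus 1 biological sample per genotype, nothing below was checked on further animals, and no p-value was computed. The sources used here give neither the strain, nor the kind of Lipe allele, nor the diet.

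De novo lipogenesis builds fatty acids in the cytosol from carbon that leaves the mitochondrion as citrate. The citrate carrier Slc25a1 exports it, ATP citrate lyase (Acly) cleaves it to acetyl-CoA, fatty acid synthase (Fasn) assembles palmitate, malic enzyme (Me1) helps to supply the NADPH, and the stearoyl-CoA desaturases Scd1 and Scd2 introduce the double bond of oleate and palmitoleate. Srebf1 encodes the transcription factor SREBP-1, a principal activator of these genes, and Thrsp encodes Spot 14, a small protein that goes with high rates of lipogenesis in liver and fat. The pathway is most active in liver and adipose tissue, and a muscle sample can hold adipocytes between its fibres.

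Promoter sequences are shown for 4 of the genes because members of 1 pathway that lie on the same side of 0 invite a look at the elements through which SREBP-1 and its partners act, and because these 4 have a single annotated start site in the table used. They come from RefSeq (build GRCm38.p6), each window spans 300 bases around the start site and ends inside the transcript, and all are written 5′ to 3′ on the gene's own strand. Capitals mark matches, on either strand, to any of the motifs searched, which were the E-box CANNTG, its palindromic form CACGTG, the sterol regulatory element core TCACNCCAC, the inverted CCAAT box ATTGG bound by NF-Y and the GC box GGGCGG bound by Sp1.
Fasn, chr11:120824498-120824797, minus strand: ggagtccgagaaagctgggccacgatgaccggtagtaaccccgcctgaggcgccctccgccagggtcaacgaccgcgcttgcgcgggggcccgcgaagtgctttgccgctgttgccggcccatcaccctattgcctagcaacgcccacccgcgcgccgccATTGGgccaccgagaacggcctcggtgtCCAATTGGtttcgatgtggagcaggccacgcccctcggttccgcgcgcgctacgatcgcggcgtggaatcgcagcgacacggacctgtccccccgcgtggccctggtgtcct
Acly, chr11:100527951-100528250, minus strand: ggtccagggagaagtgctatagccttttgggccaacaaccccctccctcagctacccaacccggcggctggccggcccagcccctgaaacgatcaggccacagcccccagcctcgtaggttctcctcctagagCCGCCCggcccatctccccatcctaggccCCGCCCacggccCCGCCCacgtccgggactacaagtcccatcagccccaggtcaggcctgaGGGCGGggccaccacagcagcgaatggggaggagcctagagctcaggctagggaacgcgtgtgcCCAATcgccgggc
Slc25a1, chr16:17928170-17928469, minus strand: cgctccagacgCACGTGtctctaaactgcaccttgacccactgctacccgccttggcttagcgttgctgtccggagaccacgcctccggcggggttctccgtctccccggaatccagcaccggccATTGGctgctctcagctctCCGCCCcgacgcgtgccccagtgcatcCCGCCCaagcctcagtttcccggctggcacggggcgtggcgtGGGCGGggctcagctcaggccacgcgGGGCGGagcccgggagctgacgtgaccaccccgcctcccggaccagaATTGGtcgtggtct
Thrsp, chr7:97417501-97417800, minus strand: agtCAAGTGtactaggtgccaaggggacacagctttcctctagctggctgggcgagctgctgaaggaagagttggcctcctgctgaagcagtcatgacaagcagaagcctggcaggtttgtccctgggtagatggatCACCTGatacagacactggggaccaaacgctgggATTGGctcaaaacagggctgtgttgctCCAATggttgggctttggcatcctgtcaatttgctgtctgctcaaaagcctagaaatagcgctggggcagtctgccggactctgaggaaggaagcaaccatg

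The Fasn window held 3 inverted CCAAT boxes and 1 E-box, CAATTG, which overlaps a back-to-back pair of these boxes in the run CCAATTGG, 61 to 56 bases before the start. It held 0 GC boxes. The Acly window held 4 GC boxes, 1 inverted CCAAT box and 0 E-boxes. The Slc25a1 window held 4 GC boxes, 2 inverted CCAAT boxes and the palindromic E-box CACGTG. The Thrsp window held 2 E-boxes and 2 inverted CCAAT boxes. Promoters of 6 of the 8 genes, all but Scd1 and Scd2, were in the table. They gave 9 windows in all, since Srebf1 has 3 start sites and Me1 has 2. The inverted CCAAT box was in 7 of the 9 windows, against 37.4% of all 32851 promoter windows of that length. The E-box was in 7 of 9 (72.3% of all), the GC box in 5 of 9 (35.7%), the palindromic E-box, which is also counted as an E-box, in 1 of 9 (7.15%) and the sterol regulatory element core in 0 of 9 (1.24%). These matches describe letters in the windows and do not show that a factor binds there.

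Markers of slow muscle and the targeted gene were read first. Of 8 slow-twitch fibre markers, 8 were above the filter on low values, among them the slow troponin T gene Tnnt1 at 6183 and 5940 on the HSL-null arrays, against 6088 and 5646 on the wildtype arrays. The slow myosin gene Myh7 measured 5267 and 5136 on the HSL-null arrays, against 5355 and 4888 on the wildtype arrays. All 8 markers had a mean difference above 0, by at most 0.093 on the log2 scale, where 51.2% of the named genes tested lay below 0. For 3 of the 8, both HSL-null arrays lay above both wildtype arrays, where 19.7% of the named genes tested did. Lipe measured 16.2 and 19.4 on the HSL-null arrays, against 71.4 and 70.2 on the wildtype arrays. Whether its probe set lies in the disrupted part of the gene is not known here, and Lipe is itself an adipocyte gene. Duplicate arrays correlated at r = 0.988 in HSL-null and 0.987 in wildtype across the probe sets kept. RNA quality was read from control probe sets, for which the 3′ signal over the 5′ signal of beta-actin was 0.816 and 0.823 on the HSL-null arrays, against 0.688 and 0.706 on the wildtype arrays. The Gapdh ratio was 0.922 and 0.912 on the HSL-null arrays, against 0.955 and 0.927 on the wildtype arrays. These ratios moved with genotype in every comparison below, and their part in the results was not tested.

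All 8 lipogenic genes had a mean difference below 0, where 51.2% of the named genes tested did, and Fasn and Scd1 had the largest differences. Fasn was 2.00-fold lower and Scd1 1.67-fold lower in the HSL-null pool, whereas the other 6 genes were lower by 1.05-fold (Me1) to 1.19-fold (Thrsp), each gene read on its brightest probe set. For Scd2 that choice rests on a near tie in brightness, and its other probe set was 1.35-fold lower. Values are the deposited linear intensities, and differences are of log2 intensities with a floor at 5.7. Of the 12 probe sets, 11 passed the filter of a mean intensity of at least 27.7, and the dimmest Scd1 probe set did not. A probe set counted as separated if each of the 4 possible HSL-null minus wildtype differences pointed the same way and none was under 1.5-fold. By this rule 2 of the 11 were separated lower (1 Fasn and 1 Scd1 probe set), 0 higher and 9 neither, where 0.226% of all 6208 probe sets tested were separated lower and 0.226% higher. By the weaker criterion that the 2 HSL-null arrays did not overlap the 2 wildtype arrays, 10 of 11 were lower and 0 higher, where 21.1% of all probe sets tested were lower and 19.5% higher. The median difference of the 8 genes was -0.18 on the log2 scale, against -0.0041 over the 4851 named genes tested. As the RNA comes from whole muscle, fewer cells of a type and less RNA per cell cannot be told apart.

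**Figure D1:**
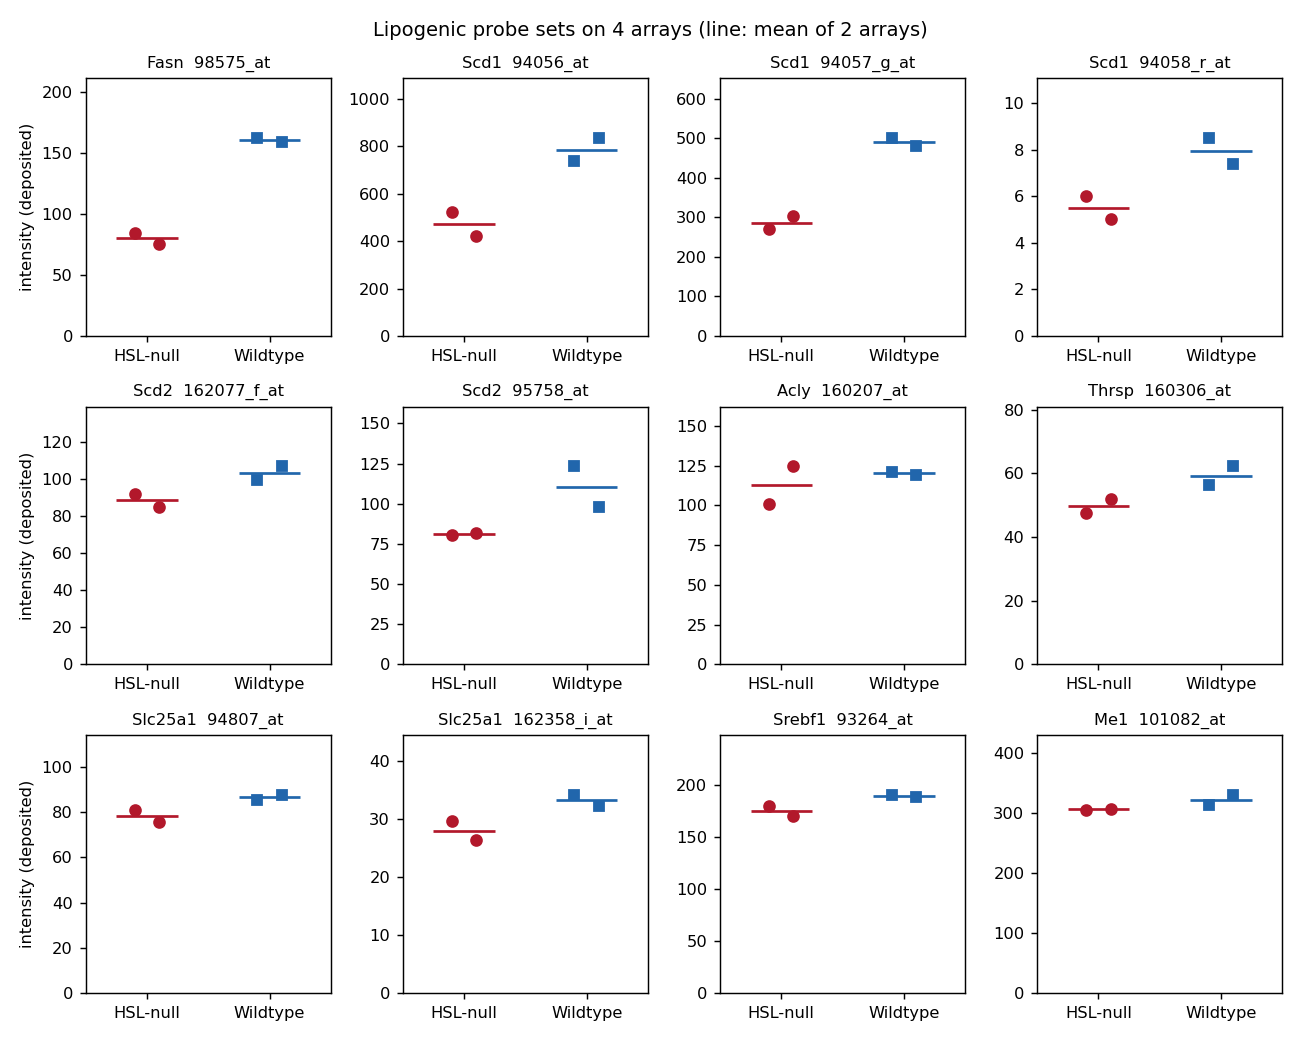
Deposited intensity (linear axis from 0) of the 12 lipogenic probe sets on 4 arrays, with HSL-null arrays as red circles, wildtype arrays as blue squares and the mean of the 2 arrays as a line. Fasn and 2 Scd1 probe sets show a wide gap between the genotypes, and Acly alone shows overlapping arrays.

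Fasn, the multifunctional enzyme that assembles palmitate, had the largest difference of the 8 genes. Its probe set (98575_at) measured 84.9 and 75.8 on the HSL-null arrays, against 163 and 159 on the wildtype arrays. Both HSL-null arrays lay well below both wildtype arrays, with no overlap. The mean was 80.4 ± 6.43 in HSL-null and 161 ± 2.62 in wildtype (SD, n = 2 arrays of 1 pool). The log2 difference was -1.004 ± 0.083 (SE of the duplicates), and the 4 single differences corresponded to 1.87-fold to 2.15-fold lower. Fasn ranked 10th from the lowest difference among 6208 probe sets tested. The HSL-null duplicates differed by 0.16 on the log2 scale and the wildtype duplicates by 0.033, so that the gap between the pools was far wider than that between duplicates.

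Scd1, the main delta-9 desaturase of mouse liver and fat, was measured by 3 probe sets. The brightest (94056_at) read 522 and 421 on the HSL-null arrays, against 737 and 835 on the wildtype arrays. The groups did not overlap, but the closest pair of arrays differed by 1.41-fold, so that this probe set was not separated at a log2 difference of -0.74 ± 0.18 (SE of the duplicates). The next (94057_g_at) read 269.8 and 302 on the HSL-null arrays, against 501 and 479.6 on the wildtype arrays. It was separated, with a log2 difference of -0.78 ± 0.088 and single differences of 1.59-fold to 1.86-fold lower. These 2 probe sets are annotated to the same accession, so they are not independent readings of Scd1. The third (94058_r_at) lay near the floor, at 6.0 and 5.0 on the HSL-null arrays and 8.5 and 7.4 on the wildtype arrays, and failed the filter. The brightest probe set became separated when HSL-null array 1 was left out (-0.90) or wildtype array 1 was left out (-0.83).

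Scd2, the desaturase that predominates in brain and in early life, lies beside Scd1 on chromosome 19, with Scd4 and 1 other annotated gene between them. One probe set (95758_at) measured 80.8 and 81.5 on the HSL-null arrays, against 123 and 97.7 on the wildtype arrays. The HSL-null arrays were nearly equal and lay below both wildtype arrays, which were themselves far apart. Its log2 difference was -0.44 ± 0.17, with a smallest single difference of 1.20-fold, and it was not separated. Without wildtype array 2 it was separated, at -0.60. The other probe set (162077_f_at) measured 92.1 and 85.2 on the HSL-null arrays, against 99.7 and 107 on the wildtype arrays, a log2 difference of -0.22 ± 0.076. The suffixes _f and _g mark probe sets that can share probes with related sequences, so that readings of the Scd genes can mix. Within each array, the log2 ratio of Scd1 to Scd2 on their brightest probe sets was 2.50 and 2.30 in HSL-null, against 2.89 and 2.96 in wildtype. The ratio was thus lower in both HSL-null arrays, by 0.52 ± 0.11 on the log2 scale, and it does not depend on how the arrays were scaled to each other by a constant. It does depend on the probe set, since the other Scd2 probe set was almost as bright (mean intensity 95.8 against 96.0) and gave ratios of 2.69 and 2.37 in HSL-null, against 2.58 and 3.10 in wildtype. With that Scd2 probe set and the brightest Scd1 probe set the groups overlapped, and the difference was -0.31 ± 0.30. With the separated Scd1 probe set (94057_g_at) the groups did not overlap for either Scd2 probe set. The differences were then -0.34 ± 0.16 over 95758_at and -0.56 ± 0.16 over 162077_f_at.

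**Figure D2:**
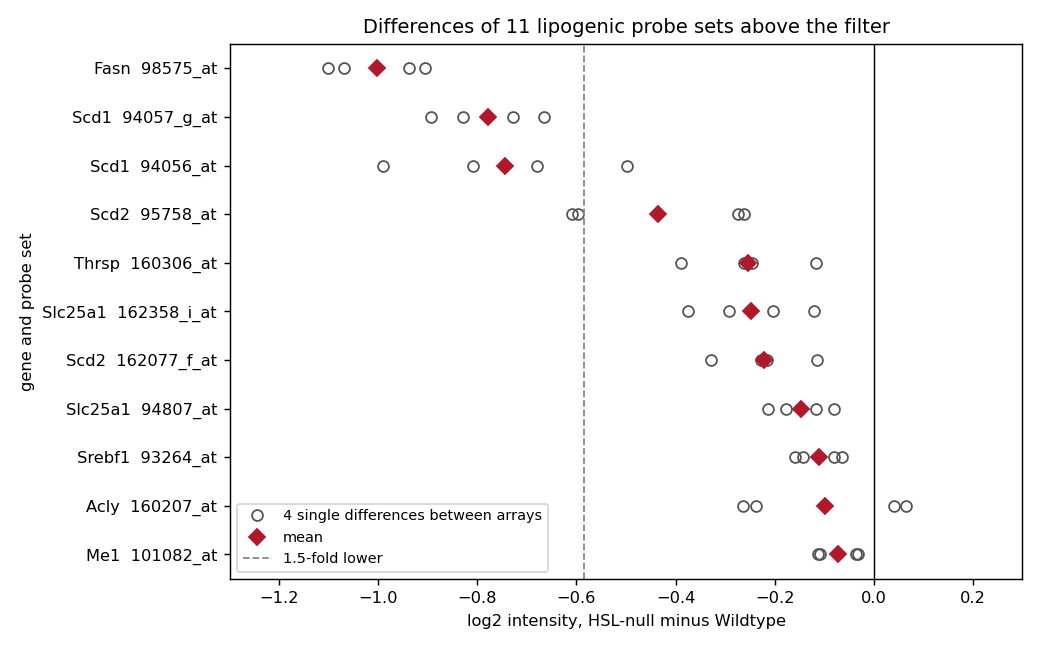
Log2 intensity of HSL-null minus wildtype for the 11 lipogenic probe sets above the filter, with open circles for the 4 single differences between arrays, red diamonds for their mean and a dashed line at 1.5-fold lower. All 4 circles of Fasn and of 1 Scd1 probe set lie beyond the line, and Acly is the single probe set with circles on both sides of 0.

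The genes that feed Fasn with acetyl-CoA and NADPH had mean differences between -0.25 and -0.072 on the log2 scale, and 0 of their 4 probe sets were separated. Acly, which makes cytosolic acetyl-CoA, measured 101 and 125 on the HSL-null arrays, against 121 and 119 on the wildtype arrays. The HSL-null arrays fell on either side of the wildtype arrays, and Acly was the single member whose groups overlapped (log2 difference -0.099 ± 0.15, SE of the duplicates). Its mean difference was above 0 (0.053) when HSL-null array 1 was left out. Slc25a1, the citrate carrier of the inner mitochondrial membrane, measured 80.9 and 75.6 on the HSL-null arrays, against 85.5 and 87.7 on the wildtype arrays, for its brighter probe set (94807_at). The difference was small, -0.15 ± 0.052, with no overlap between the groups. Its dimmer probe set (162358_i_at), with a mean just above the filter, measured 29.6 and 26.3 on the HSL-null arrays, against 34.1 and 32.2 on the wildtype arrays (-0.25 ± 0.095). Me1, the cytosolic malic enzyme, measured 305 and 306 on the HSL-null arrays, against 313 and 329.7 on the wildtype arrays. Its arrays did not overlap, but the closest pair differed by 1.02-fold and the mean difference, -0.072 ± 0.038, was the smallest of the 8 genes.

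The regulators lay below wildtype by small amounts too. Srebf1 was read by 1 probe set, and which of the SREBP-1a and SREBP-1c transcripts it detects was not determined. It measured 179.9 and 170.3 on the HSL-null arrays, against 190.2 and 188 on the wildtype arrays. The groups did not overlap, and the log2 difference was -0.11 ± 0.040 (SE of the duplicates), or 1.08-fold. Thrsp measured 47.5 and 51.9 on the HSL-null arrays, against 56.3 and 62.2 on the wildtype arrays. Its difference of -0.25 ± 0.096 also came without overlap, and neither gene was separated. Within each array, the log2 ratio of Fasn to Srebf1 was -1.08 and -1.17 in HSL-null, against -0.23 and -0.24 in wildtype. Fasn was therefore lower relative to Srebf1 by 0.89 ± 0.043 on the log2 scale in the HSL-null pool. The ratio of Fasn to Me1 was lower by 0.93 ± 0.10, that of Fasn to Acly by 0.90 ± 0.23 and that of Fasn to Scd1 by 0.26 ± 0.13. These ratios show that the members differed by unequal amounts, and no test across animals stands behind them.

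**Figure D3:**
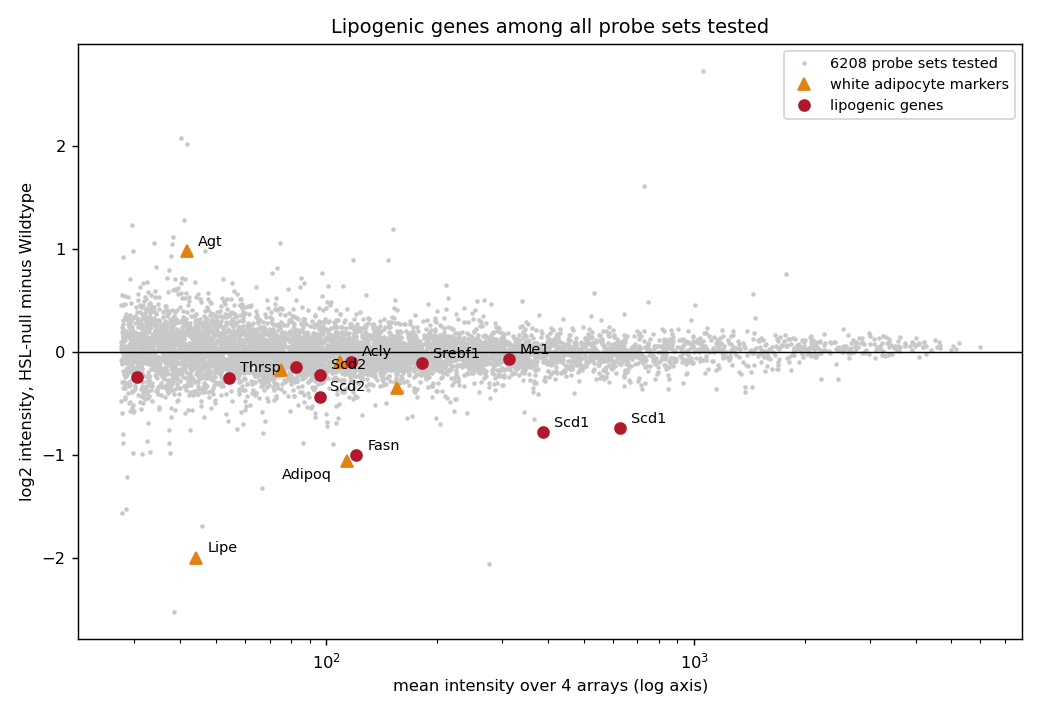
Log2 intensity of HSL-null minus wildtype against mean intensity over 4 arrays (log axis) for the 6208 probe sets tested in grey. Lipogenic probe sets are red circles, and white adipocyte markers, Lipe included, are orange triangles. Fasn and both Scd1 probe sets lie at the lower edge of the grey cloud, Adipoq lies beside Fasn, 1 Scd2 probe set lies at -0.44, and the other lipogenic probe sets lie within the cloud between -0.25 and -0.072.

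Markers of white adipocytes gave mixed values, with Adipoq closest to Fasn. Lipe, as the targeted gene, is left out of the counts. Of the 13 other markers 10 were on the array, of which 5 passed the filter. Adipoq was the 1 separated lower, with 0 higher and 4 neither, where 0.247% of the named genes tested were separated lower. Lower without overlap were 3 of the 5 and higher 1, where 21.5% of the named genes tested were lower and 19.7% higher. Adipoq, the adiponectin gene, measured 73.5 and 74.1 on the HSL-null arrays, against 150 and 157 on the wildtype arrays. The summed intensity of the 10 markers was 496 and 482 on the HSL-null arrays, against 622 and 612 on the wildtype arrays. The transcription factor gene Cebpa differed by -0.35 ± 0.092 and the fatty acid binding protein gene Fabp4 by -0.18 ± 0.11, both without overlap, whereas leptin (Lep) differed by -0.10 ± 0.21 with overlapping arrays. Angiotensinogen (Agt), which fat and liver secrete, differed the other way, by 0.98 ± 0.32. The remaining markers on the array were below the filter. Of these, the lipid droplet gene Cidec was below the floor on all 4 arrays. Retn measured 19.6 and 2.5 on the HSL-null arrays, against 15.2 and 12.3 on the wildtype arrays. Pparg differed by -0.55 ± 0.32 and Pck1 by -0.51 ± 0.25, both lower without overlap. Aqp7 differed by -0.64 ± 0.54 with overlapping arrays. The part of the adipocyte signal in the lower Fasn and Scd1 levels was not tested.

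Fasn and Scd1 were also set against each white adipocyte marker above the filter, Lipe aside, within each array. For Fasn the ratio overlapped between the genotypes for Adipoq and for 0 of the other 4 markers. The log2 ratio of Fasn to Adipoq was 0.21 and 0.033 in HSL-null, against 0.12 and 0.016 in wildtype, so that the groups overlapped (difference 0.054 ± 0.10, SE of the duplicates). The ratio of Fasn to Fabp4 was 0.16 and 0.21 in HSL-null, against 1.00 and 1.02 in wildtype, a difference of -0.83 ± 0.027. Relative to Cebpa the difference was -0.65 ± 0.16, relative to Lep -0.90 ± 0.25 and relative to Agt -1.98 ± 0.25. The ratio of Scd1, on its brightest probe set, to Adipoq was 2.83 and 2.51 in HSL-null, against 2.29 and 2.41 in wildtype, higher by 0.31 ± 0.17. Scd1 to Fabp4 was lower by 0.57 ± 0.13, at 2.78 and 2.68 in HSL-null and 3.17 and 3.42 in wildtype. Relative to Lep the Scd1 difference was -0.64 ± 0.38, relative to Cebpa -0.40 ± 0.20 and relative to Agt -1.72 ± 0.14, each without overlap. The separated Scd1 probe set (94057_g_at) had the same direction for each of these markers, also without overlap.

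Other genes of the pathway gave 0 separated members. At a background of 0.247% of named genes separated lower, such a count among so few carries no information. Of 19 further enzymes of fatty acid synthesis, elongation and desaturation, 7 were on the array, of which 3 passed the filter, with 0 separated and a median of -0.024. The elongase gene Elovl5 differed by -0.031 ± 0.071, the desaturase gene Fads1 by -0.024 ± 0.069 and Hsd17b12, a reductase of the elongation cycle, by 0.11 ± 0.085 (SE of the duplicates), each with overlapping arrays. The acetyl-CoA carboxylase genes Acaca and Acacb, which make the malonyl-CoA that Fasn uses, were not analysed here. Of 13 genes that supply citrate or NADPH, 9 were on the array, of which 8 passed the filter, 6 of them with a mean below 0 and 2 below without overlap (median -0.096), where 51.2% of the named genes tested had a mean below 0 and 21.5% were lower without overlap. The largest differences above the filter were those of pyruvate carboxylase (Pcx, -0.52 ± 0.60) and 6-phosphogluconate dehydrogenase (Pgd, -0.31 ± 0.14). Transketolase (Tkt, -0.27 ± 0.31) and transaldolase (Taldo1, -0.11 ± 0.044) came next. Below the filter, at a mean intensity of 12.5, Aco1 was higher without overlap, by 0.69 ± 0.10. Pgd measured 106 and 92.7 on the HSL-null arrays, against 114 and 131 on the wildtype arrays. Pgd and Taldo1 were the genes lower without overlap. Mdh1 was the 1 gene above the filter that was higher without overlap (0.10 ± 0.071), where 19.7% of the named genes tested were.

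Of 22 regulators of lipogenic transcription, 15 were on the array, of which 11 passed the filter, with 0 separated, 4 lower and 2 higher without overlap, and a median of -0.073. Over all named genes tested, 21.5% were lower without overlap and 19.7% higher. As 0.247% were separated lower, the 0 separated here and among the cholesterol genes below carry no information. Mid1ip1, a paralogue of Thrsp whose product promotes polymerisation of acetyl-CoA carboxylase, measured 603 and 597 on the HSL-null arrays, against 719 and 737 on the wildtype arrays. Its duplicates were close in both pools, and the difference of -0.28 ± 0.020 was near that of Thrsp. The E-box factor genes Usf2 (-0.43 ± 0.33) and Usf1 (-0.37 ± 0.25) had wide spreads, and ChREBP's partner gene Mlx differed by -0.16 ± 0.096. Nfyc, a subunit of NF-Y, was higher at 0.17 ± 0.066, and the liver X receptor gene Nr1h3, an activator of Srebf1, differed by -0.073 ± 0.13. Of 20 cholesterol synthesis and uptake genes driven mainly by SREBP-2, 14 were on the array, of which 7 passed the filter, with 0 separated, 3 lower without overlap and a median of -0.076. Hmgcs1, the cytosolic HMG-CoA synthase, measured 132 and 134 on the HSL-null arrays, against 155 and 164 on the wildtype arrays (-0.26 ± 0.042). Among the list's genes above the filter the largest difference, that of the mevalonate decarboxylase gene Mvd, came with a wide spread (-0.29 ± 0.50). Mevalonate kinase (Mvk) differed by -0.17 ± 0.13, and the sterol dehydrogenase gene Nsdhl lay above 0 at 0.088 ± 0.19. Sqle, whose mean of 26.75 was just below the filter, differed by -0.46 ± 0.18, lower without overlap.

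**Figure D4:**
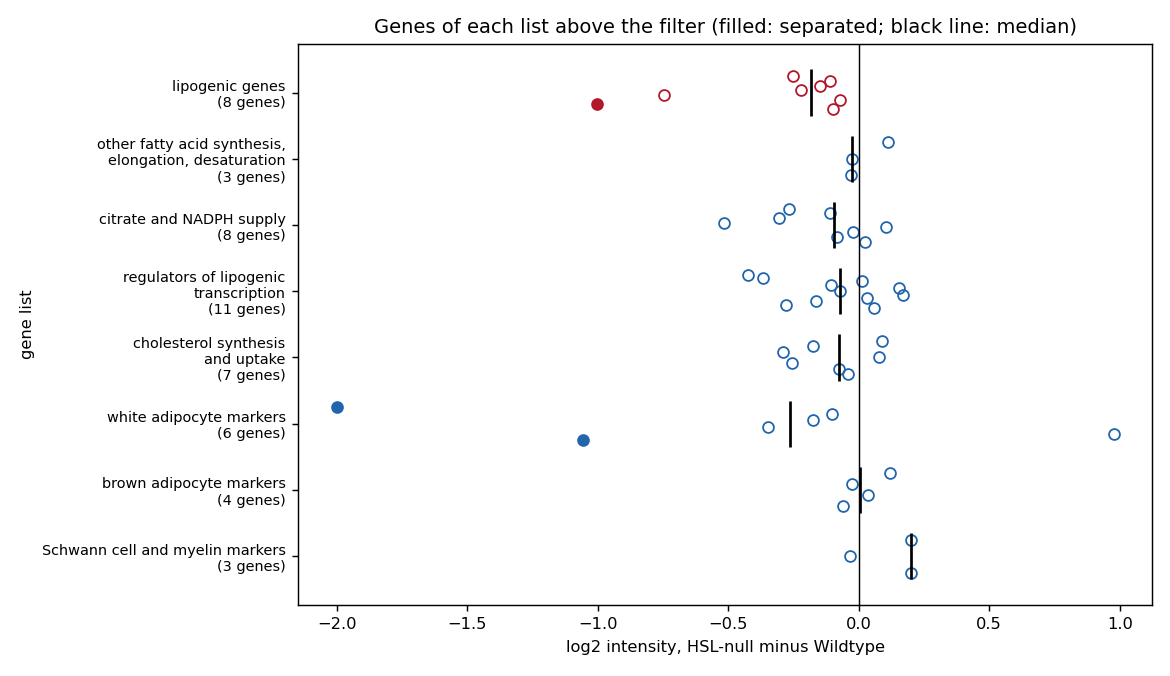
Log2 intensity of HSL-null minus wildtype for each gene above the filter in the lipogenic set (red) and in 7 other lists (blue), each gene on its brightest probe set, with filled circles for separated genes and a black line at the list's median. The lipogenic set lies wholly below 0 with a median of -0.18, and the other pathway lists spread to both sides of 0. The white adipocyte list includes Lipe here, and its median with Lipe is -0.26.

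Markers of brown adipocytes and of Schwann cells, which also make lipid, were few above the filter. At a background of 0.247% of named genes separated lower, a count of 0 separated among so few carries no information, and their values are given as a description. Of 6 brown adipocyte markers 4 were above the filter, with arrays that overlapped for each of the 4 and a median of 0.0048. These were Ppara, a nuclear receptor gene that muscle also expresses (0.12 ± 0.14), the lipid droplet gene Cidea (-0.061 ± 0.24) and the respiratory subunit genes Cox7a1 (0.034 ± 0.047) and Cox8b (-0.024 ± 0.099), both at high level in muscle. Ucp1, which defines brown fat, measured 10 and 7.1 on the HSL-null arrays, against 6.3 and 6.0 on the wildtype arrays, below the filter. Of 12 Schwann cell and myelin markers, which matter since Scd2 is high in nerve, 8 were on the array, of which 3 passed the filter, with a median of 0.20. Their summed intensity was 320.4 and 345 on the HSL-null arrays, against 337 and 291 on the wildtype arrays. The myelin genes Pmp22 and Mbp differed by -0.032 ± 0.13 and 0.20 ± 0.24, and the glial transcription factor gene Sox10 by 0.20 ± 0.20 (SE of the duplicates), all with overlapping arrays. Of 9 fast-twitch fibre markers, 9 were above the filter, 3 of them separated higher (Myh4, Actn3 and Pvalb) and 0 lower, where 0.206% of the named genes tested were separated higher. The fast myosin light chain gene Mylpf was the exception below 0, at -0.27 ± 0.24. Their summed intensity was 20749 and 20574 on the HSL-null arrays, against 17642 and 16078 on the wildtype arrays, and the part of this shift in the lipogenic values was not tested.

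The genes with profiles most like that of Fasn were found by the Euclidean distance between log2 profiles over the 4 arrays, each centred on its mean. These 4 values come from 2 pools, so that likeness here rests mainly on the difference between the pools. Outside the lipogenic set, the nearest 5 genes were Adipoq (distance 0.15), the peptide-amidating enzyme gene Pam (0.23), the cytochrome P450 gene Cyp2e1 (0.27), the glucocorticoid-induced co-chaperone gene Fkbp5 (0.31) and the DNA polymerase gene Polb (0.35). Scd1 itself lay at a distance of 0.32 from Fasn, nearer than Polb and farther than Fkbp5. The other 6 lipogenic genes lay farther away, between 0.79 (Thrsp) and 0.96 (Acly). Pam measured 70.0 and 75.9 on the HSL-null arrays, against 134 and 137 on the wildtype arrays.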

How the data were processed

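Total RNA of pooled soleus muscle was measured on 4 arrays. The authors deposited 1 linear intensity per probe set and array, already scaled, since the mean without the outer 2% at either end was 100.1 on each array. The sources used here name no software or background correction. Before the log2 step, deposited intensities under the table's 25th percentile (5.7) were set to it. The 66 control probe sets were left out, and the 6208 probe sets with a mean at or above the median (27.7) were kept. Gene names come from the platform annotation, and 10839 of 10855 with 1 symbol were matched by gene ID to RefSeq (GRCm38.p6).

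The arrays are duplicates of 1 pool per genotype, so that their number limits the precision and errors (SD over 2 arrays, or SE of the duplicates) leave out the variation between animals. The members and lists were chosen with earlier results of these data known. Genes named in a list were the separated ones and up to 4 with the largest difference above the filter, and, as a check of the tissue, those at the highest level among the slow-twitch markers (Tnnt1 and Myh7 are given). Mlx, Nr1h3, Mdh1, Aco1, Sqle, Retn, Cidec, Pparg, Pck1, Aqp7, Ucp1 and the ratios within arrays were chosen after their values were seen. Alternatives were median centring, quantile normalization and cyclic loess (limma 3.58.1, R 4.3.3), other floors, filters and thresholds, each array left out, and pairing by array number. Python 3.11.15, numpy 2.4.6 and pandas 2.3.3 were used.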

Additional observations from a re-analysis of the deposited data

How the results depend on the processing

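Each gene with probe sets above the filter kept mean differences below 0 under median centring, quantile normalization, cyclic loess and the pairing. The same held for the other floors, filters and thresholds, where the filter at the 75th percentile left 5 of the 8 genes (median -0.11). When an array was left out, the single exception was Acly. Fasn ranged from -1.09 to -0.92 and the separated Scd1 probe set from -0.86 to -0.70, and both were separated under every alternative other than the 2-fold threshold, which left 0 separated lipogenic probe sets. Without overlap were 11 of 11 lipogenic probe sets with median centring (27.2% of all tested lower), and 10 of 11 with quantile normalization (20.7%) and loess (20.4%). The count of separated probe sets over the whole table was 28, and it was 175 with no filter, 10 with the filter at the 75th percentile, 132 with the lower of the other fold thresholds and 14 with a 2-fold threshold. Leaving out 1 array gave 81 to 108 over the table and 2 to 3 lipogenic probe sets, with 0.548% to 0.870% of all probe sets tested lower, since 2 differences then replace 4. Same-numbered arrays did not deviate together (r = -0.086 across probe sets), and with the replicate block 35 probe sets over the table and 2 lipogenic ones were separated, with the median of the 8 genes at -0.18. With the dimmest probe set, or the mean over probe sets, standing for a gene, that median was -0.25 and -0.23. With no detection calls, signal over background limits the dim probe sets.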

Other observations

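The brighter pair of Scd1 probe sets, which share an accession, ordered the duplicates in opposite ways in both pools. HSL-null array 1 minus array 2 was 0.31 on the log2 scale for 94056_at and -0.16 for 94057_g_at, and wildtype array 1 minus array 2 was -0.18 and 0.063. The mean difference between the pools was nevertheless close for both, at -0.74 and -0.78. In the RefSeq gene order on chromosome 19, the desaturase genes come in the order Scd3, Scd2, Scd4 and Scd1, with 3 other genes after Scd3 and 1 after Scd2, and Scd3 and Scd4 had no probe set with that single symbol in the annotation used.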
